A study of Mus musculus with 6 samples.

Results

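CpG-dense windows of intermediate methylation were 2103 of the 359192 windows in which CpG methylation was measured in mouse embryonic stem cells (mESCs). Each window of the table covers 100 cytosines in CpG context, so a short window is a CpG-dense one. Members were chosen by 2 limits: a length of at most 2000 bp on chromosomes 1 to 19, and a mean over the 6 libraries from 20% to 50%. The level of the members was therefore set by the choice and is given as a description. Of 11161 autosomal windows of at most 2000 bp, 7805 had a mean under 20% and 1253 a mean over 50%. The windows most like the members in level were 29357 autosomal windows over 2000 bp with a mean from 20% to 50%, called long windows here.

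The cells were E14TG2a, a feeder-independent line of strain 129/Ola, grown between passages 5 and 28 on gelatin in fetal bovine serum with LIF. They were EdU labelled, ethanol fixed, stained with propidium iodide and sorted into G1 and G2/M populations, and no other treatment separates the groups. EM-seq, an enzymatic method that reads 5-methylcytosine and 5-hydroxymethylcytosine together as methylated, was applied to 3 libraries of each phase. The study sorted these populations to ask whether methylation copied after replication is complete before mitosis. As a check of the cell label, 7 stem cell genes were looked up, and 3 of them had CpG-dense windows within 2000 bp of a transcript start. All 6 of these windows, at Esrrb, Klf4 and Sox2, had means under 20%, from 0% to 12.4%. Longer windows over the outermost annotated start of the gene were mixed, with means of 13.9% at Nanog, 42.2% at Dppa3, 55.0% at Pou5f1, where the window spans 188569 bp, and 66.7% at a further start of Esrrb. The windows thus do not settle the label, and a methylation level is not an expression level.

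CpG-dense sequence in mammalian genomes lies mostly in CpG islands at gene promoters, which are kept free of methylation, while the CpG-poor remainder of the genome is methylated. An intermediate percentage in a cell population can come from a methylated and an unmethylated parental copy, as at the control regions of imprinted genes, from cells that differ, or from CpGs that differ within a window. A percentage per window does not separate these.

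Central stretches of a few members are printed from the GRCm38 reference (RefSeq, plus strand), 1 or 2 for each kind of window described below, passing over any stretch in an untranslated region. Capitals mark CpG dinucleotides, whose cytosines are the measured bases. The reference is of strain C57BL/6J and the cells are of 129/Ola, so the sequenced DNA may differ from these letters. The first pair comes from imprinted genes and holds 17 and 8 CpGs in 300 bases.
Gnas / Nespas, chr2:174297381-174297680: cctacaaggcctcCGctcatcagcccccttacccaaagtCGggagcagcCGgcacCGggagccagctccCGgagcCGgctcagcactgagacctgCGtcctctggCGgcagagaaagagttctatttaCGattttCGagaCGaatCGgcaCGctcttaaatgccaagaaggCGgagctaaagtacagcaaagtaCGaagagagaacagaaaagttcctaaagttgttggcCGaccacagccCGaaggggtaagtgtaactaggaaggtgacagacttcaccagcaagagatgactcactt
Peg3 / Usp29, chr7:6728660-6728959: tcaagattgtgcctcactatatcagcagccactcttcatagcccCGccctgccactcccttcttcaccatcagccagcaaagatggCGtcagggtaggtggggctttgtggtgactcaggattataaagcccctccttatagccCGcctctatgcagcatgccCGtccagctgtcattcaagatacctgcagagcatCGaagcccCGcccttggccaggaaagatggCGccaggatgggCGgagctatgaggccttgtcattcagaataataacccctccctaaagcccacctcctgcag
The next pair lies at the germline gene Sycp1, with 4 CpGs, and in the developmental transcription factor gene Six2, with 8.
Sycp1, chr3:102936384-102936683: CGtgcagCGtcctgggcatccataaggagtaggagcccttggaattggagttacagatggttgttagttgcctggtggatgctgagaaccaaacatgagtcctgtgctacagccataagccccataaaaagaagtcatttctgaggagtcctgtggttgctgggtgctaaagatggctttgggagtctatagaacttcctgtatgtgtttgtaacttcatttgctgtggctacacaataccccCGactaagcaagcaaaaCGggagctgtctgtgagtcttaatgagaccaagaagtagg
Six2, chr17:85686358-85686657: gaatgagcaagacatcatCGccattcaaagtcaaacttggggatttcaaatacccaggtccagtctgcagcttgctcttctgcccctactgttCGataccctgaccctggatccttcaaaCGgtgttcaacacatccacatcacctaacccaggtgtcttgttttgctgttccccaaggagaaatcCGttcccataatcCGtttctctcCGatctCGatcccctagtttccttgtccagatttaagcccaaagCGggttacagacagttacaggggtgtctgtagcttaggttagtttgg
The following pair is from the members with the smallest and the largest spread between replicates, at Paqr8 with 11 CpGs and near Il13 with 6.
Paqr8, chr1:20891255-20891554: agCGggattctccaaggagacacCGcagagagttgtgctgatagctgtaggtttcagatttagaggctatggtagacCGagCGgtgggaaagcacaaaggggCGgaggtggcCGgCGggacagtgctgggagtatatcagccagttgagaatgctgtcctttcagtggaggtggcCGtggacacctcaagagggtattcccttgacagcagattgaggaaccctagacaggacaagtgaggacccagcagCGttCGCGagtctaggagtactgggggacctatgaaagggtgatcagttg
Il13, chr11:53635551-53635850: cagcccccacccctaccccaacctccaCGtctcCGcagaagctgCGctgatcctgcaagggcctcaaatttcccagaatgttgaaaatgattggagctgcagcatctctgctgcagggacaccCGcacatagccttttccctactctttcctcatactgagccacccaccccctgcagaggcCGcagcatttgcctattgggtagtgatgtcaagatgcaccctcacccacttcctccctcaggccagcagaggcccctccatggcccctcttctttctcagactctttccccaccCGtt
The last is from a member among those with the largest excess of G1 over G2/M, at Plcd1 with 9 CpGs.
Plcd1, chr9:119093884-119094183: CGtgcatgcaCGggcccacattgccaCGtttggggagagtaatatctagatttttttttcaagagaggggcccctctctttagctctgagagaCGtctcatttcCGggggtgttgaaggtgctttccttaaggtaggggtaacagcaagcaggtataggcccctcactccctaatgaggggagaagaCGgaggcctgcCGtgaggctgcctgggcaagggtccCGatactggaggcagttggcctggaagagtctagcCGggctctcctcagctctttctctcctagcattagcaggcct

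Members were most frequent at the lower limit of the rule. Between 20% and 25% there were 564 members, and between 40% and 45% there were 200. The number of CpG-dense windows fell from 4736 under 5% to 145 between 55% and 60%, and rose again to 199 between 75% and 80%. The members thus lay on the slope down from a large unmethylated group toward a small methylated one. The lowest count between these groups, 145, lay above the upper limit of the rule. The limits cut through a continuous range. Members at Ppfia3 and Eef2 and excluded windows at Ubp1 and Rgs20 all had means that round to 20.0%. At the upper limit, members at Sycp1 and Rbfa had means of 50.0% and 50.0%, and the nearest excluded windows, in Wnt3a and Spen, 50.1% and 50.1%. At the length limit, 4 members were exactly 2000 bp and 4 windows of the same level range were 1 bp longer.

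**Figure D1:**
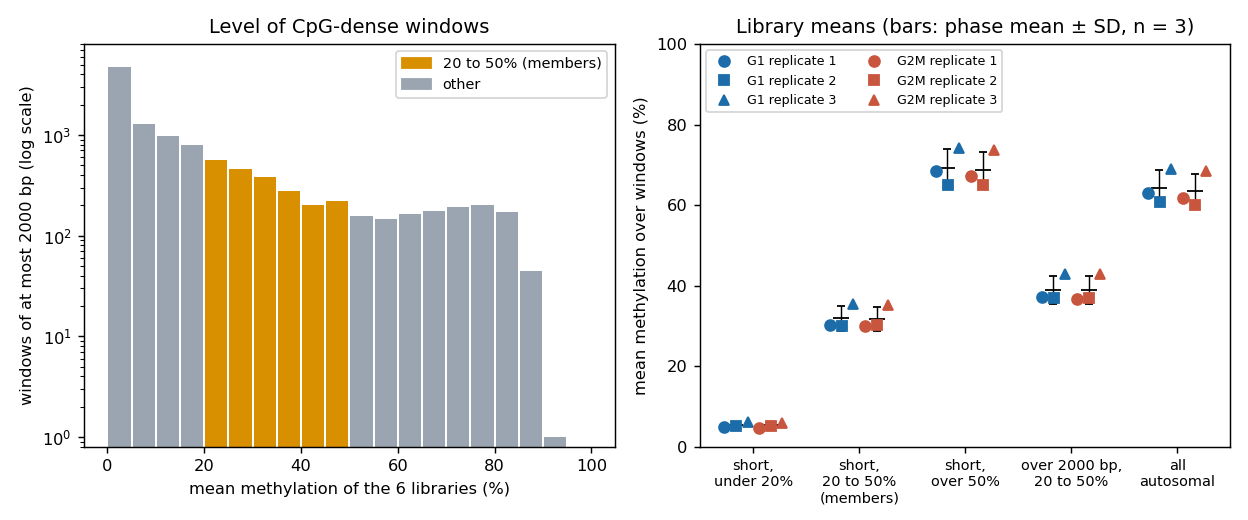
Left, the number of autosomal windows of at most 2000 bp (log scale) by mean methylation of the 6 libraries in bins of 5%, with the members in orange. Right, mean methylation over windows for each library and class of windows, with short black marks and bars for the phase mean ± SD (n = 3). In every class replicate 3 lay above replicates 1 and 2 of both phases, and the G1 and G2/M points overlapped.

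Averaged over the 2103 members, G1 replicates 1, 2 and 3 stood at 30.2%, 30.0% and 35.5%, and G2/M replicates 1, 2 and 3 at 29.9%, 30.1% and 35.1%. Replicate 3 was the high library of both phases, and the phases overlapped. In the members replicate 3 lay 5.39 percentage points above the mean of the other G1 replicates and 5.12 above that of the other G2/M replicates. Over all 344780 autosomal windows the same offsets were 7.23 and 7.48 percentage points.

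G1 and G2/M did not differ in the members beyond the spread between replicates. G1 averaged 31.9% ± 3.11 (SD, n = 3) and G2/M 31.7% ± 2.96 (SD, n = 3), which differ by 0.153 percentage points (two-sided exact permutation test, p = 0.6, where 3 libraries against 3 cannot go below 0.1). Subtracting same-numbered libraries gave 0.280, -0.155 and 0.334 percentage points, with G1 higher in 2 of 3 (exact sign-flip test, p = 0.5, smallest possible 0.25). Without G1 replicate 3, G2/M replicate 1 or G2/M replicate 2 the sign turned, to -1.64, -0.755 and -0.645 percentage points. Leaving out 1 library weights the high replicate 3 unequally between the phases, so these turns do not test the phase difference. The difference over all autosomal windows was 0.844 percentage points, and in the long windows 0.129.

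Set against the other CpG-dense windows of the same library, the members stood 16.4, 16.7 and 20.0 percentage points higher in G1 replicates 1, 2 and 3. In G2/M they stood 16.5, 16.7 and 19.8 percentage points higher. The phase difference of this gap was 0.0194 percentage points (two-sided exact permutation test, p = 1). The gap was again largest in replicate 3 of both phases.

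Window by window, 49.5% of members were higher in G1, against 57.1% of all 359192 windows. The median difference between phases was -0.0915 percentage points in the members and 0.923 over all windows. The middle 50% of members ran from -5.12 to 5.83 percentage points. All 3 differences by replicate number were positive in 275 members (13.1%), against 16.3% of all windows, and negative in 252 (12.0%), against 9.74%.

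No member passed the test between phases. The test was limma on log2((percentage + 1)/(100 - percentage + 1)), adjusted by Benjamini-Hochberg over all windows of the table. It called 8 of 359192 windows at an adjusted p under 0.05 (0.00223%), 0 of them members, and the smallest adjusted p of a member was 1. In simulated data with 200 changed windows, the same fit recovered 0 after adjustment at a log2 change of 1. It recovered 1 at a log2 change of 2 and 28 at 4. Most changes of these sizes were missed in the simulation, so 0 members called does not show that the phases are alike. The simulated noise was independent between libraries, without the shift of replicate 3 shared by both phases. Of the unchanged simulated windows, 5.3% to 5.32% had an unadjusted p under 0.05. The changed windows were drawn from the whole table, so these counts do not give the recovery among members. At an unadjusted p under 0.05 the test on the real data listed 137 members (6.51%), of which 75 were higher in G1 and 62 in G2/M, against 2.11% of all windows. The direction of this list turned with the libraries used: leaving out G1 replicate 3 gave 55 higher in G1 and 112 in G2/M. Leaving out G2/M replicate 1 gave 56 and 84, leaving out G2/M replicate 2 gave 58 and 64, and leaving out G2/M replicate 3 gave 98 and 45. Each of these fits also weights the high replicate 3 unequally between the phases. With all 6 libraries, the share at an unadjusted p under 0.05 was 2.81% in the long windows and 10.7% in the other CpG-dense windows, so a larger share than in the whole table was common to short windows. With replicate number as a block, the unadjusted list held 174 members (8.27%), against 4.83% of all windows, and again 0 members passed after adjustment. In all 3 G1 libraries the level exceeded all 3 G2/M libraries in 105 members (4.99%), against 4.12% of all windows. The reverse, with all G1 libraries below all G2/M libraries, was found in 87 members (4.14%), against 1.98% of all windows.

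The largest differences were described for 3 members in each direction, among those with all 3 same-numbered differences that way. Such a choice favours separate phases and small unadjusted p-values, so neither is a result of its own. In the window upstream of Plcd1, a phospholipase C gene (chr9:119093398-119094670, promoter), G1 read 67.5%, 32.8% and 52.2%, and G2/M 26.3%, 27.2% and 10.6%. No G2/M library reached the lowest G1 library, and G1 was higher by 29.5 percentage points on average (limma unadjusted p = 0.0104, adjusted p = 1). In an exon of Rai1, which encodes a chromatin protein (chr11:60187270-60188759), G1 read 62.5%, 35.3% and 44.0% and G2/M 10.8%, 34.4% and 16.7%. The phases were separate there, but the lowest G1 library and the highest G2/M library, both replicate 2, nearly met. The remaining member was at Peg3 and is described with the imprinted genes.

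In the other direction, the window in exons of Acta1, the skeletal muscle actin gene (chr8:123892677-123894098), read 32.8%, 22.9% and 43.5% for G1 and 39.2%, 54.0% and 89.3% for G2/M. G2/M replicate 3 alone exceeded 60% and the phases overlapped, with a mean difference of -27.8 percentage points (limma unadjusted p = 0.0496, adjusted p = 1). In an intron of Prr7 (chr13:55469806-55471662) G1 read 31.1%, 2.17% and 30.7% and G2/M 40.1%, 50.0% and 56.4%. Those phases did not overlap, and G1 replicate 2 was far below the other libraries. The member at Pcdha11, a clustered protocadherin on chromosome 18, read 41.5%, 15.1% and 39.2% for G1 and 68.5%, 51.4% and 58.1% for G2/M, also without overlap.

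The libraries of a phase differed widely at a single member. The pooled within-phase SD had a median of 9.30 percentage points, with the middle 50% of members from 6.83 to 12.1. Long windows of the same level range had a median of 7.96 percentage points. The members held a median of 52 CpGs of the reference and the long windows also 52, which is about 100 cytosines with both strands counted. Within each bin of 5% in level the members had the higher median SD, from 8.09 against 6.80 percentage points between 20% and 25%, to 11.0 against 8.11 between 45% and 50%. CpG-dense windows over 50% had a median SD of 9.59 percentage points. Coverage was not part of the table, so its part in this spread was not tested.

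**Figure D2:**
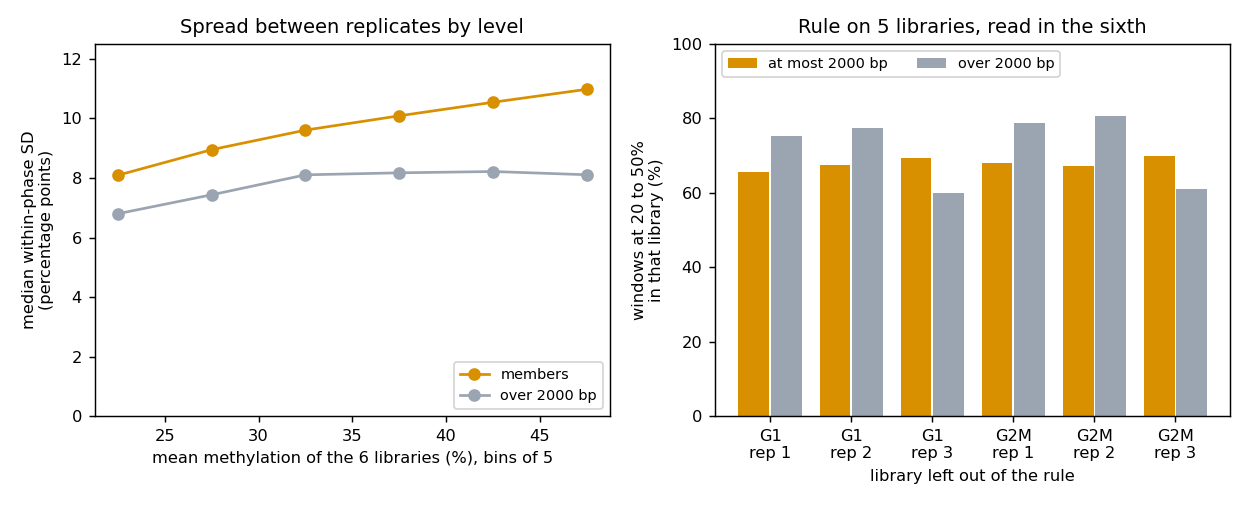
Left, median within-phase SD in percentage points against mean methylation in bins of 5%, for members and for windows over 2000 bp of the same level. Right, the share of windows at 20% to 50% in 1 library when the rule was applied to the other 5. The members had the larger SD in all 6 bins. Without centring of the libraries, the share that held in the left-out library was 65.6% to 69.9% for short windows and 59.9% to 80.6% for long ones. With centring the range was wider for short windows and narrower for long ones. In the right panel, short and long windows were not matched for level.

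All 6 libraries lay between 20% and 50% in 401 members (19.07%), against 26.9% of the long windows. At least 1 library was under 10% in 205 members (9.75%), against 1.70% of the long windows. At least 1 was over 60% in 257 members (12.2%), against 15.4% of the long windows. The median distance from the lowest to the highest library was 24.8 percentage points in members and 21.1 in long windows. Only 4 members had a library under 10% and another over 60%, and 4 members had a library listed at 0%. Members and long windows were not matched for level within the range, with means of 31.8% and 38.9%. Between 20% and 25% lay 564 members and 2409 long windows, and between 45% and 50% lay 221 and 9087. The shares of members and long windows were therefore not compared at equal level or at equal distance from the limits.

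Without centring, a level read in a library that the rule had not used stayed in range for similar shares of CpG-dense windows. When the rule was applied to 5 libraries, 65.6%, 67.5% and 69.3% of the chosen CpG-dense windows were at 20% to 50% in the left-out G1 replicate 1, 2 or 3. For G2/M the shares were 68.1%, 67.2% and 69.9%. Windows that left the range went mostly under 20% in replicates 1 and 2, at 25.3% to 26.5% of windows, and more evenly in replicate 3, where 13.7% and 14.9% fell under 20% and 16.9% and 15.3% went over 50%. With each library centred on its median the mean share was 68.9% for short windows and 72.7% for long ones. The shares then ran from 61.0% to 76.1% over the libraries for short windows, and from 71.4% to 75.1% for long ones. The evenness over libraries in short windows thus depended on leaving the libraries uncentred. Short and long windows were not matched for level, so their shares were not compared at equal distance from the limits.

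Across the 2103 members the percentages of any 2 libraries correlated with r from 0.286 to 0.413, a description over windows whose level range was limited by the choice. The long windows gave 0.399 to 0.514, and all autosomal windows 0.822 to 0.878. The spread differed little by position or length, in groups that were not matched for level. Its median was 9.30 percentage points at promoters, 9.33 in exons, 9.18 in introns and 9.42 between genes. With the members ordered by length and divided into 4 equal groups, it was from the shortest on 9.53, 9.47, 9.06 and 9.13 percentage points. The median level was 27.6% in the shortest group and 31.6% in the longest. As the SD rose with level in the members, lengths were not compared at equal level.

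The steadiest members were near the lower limit. In the window over the promoter of Paqr8, a progestin receptor family gene (chr1:20890677-20892132), G1 read 19%, 20.3% and 20% and G2/M 22.0%, 21.4% and 20.7%, a pooled SD of 0.660 percentage points. No G1 library reached the lowest G2/M library, with a difference of 1.63 percentage points. In an intron of Ccdc126 (chr6:49319406-49321128) G1 read 23.1%, 23.1% and 20.4% and G2/M 25.5%, 25.9% and 24.8%. The phases were again separate, with G2/M higher. At Dst, which encodes the cytoskeletal linker dystonin (chr1:34177963-34179254, promoter), G1 read 24.7%, 25.6% and 26.3% and G2/M 14%, 17% and 17.2%. There G1 was the higher phase in all libraries, by 9.48 percentage points (limma unadjusted p = 0.0231, adjusted p = 1). Members picked for a small SD within phases show separate phases more readily, so the separation is no result of its own.

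The least steady members ranged from under 10% to over 60% within G1. Upstream of Il13, an interleukin gene (chr11:53634845-53636557), G1 read 2.78%, 20.1% and 70.8% and G2/M 54.2%, 53.7% and 35.2%, a pooled SD of 26.2 percentage points. At Slc1a6, a glutamate transporter gene (chr10:78780338-78781935, intron), G1 read 73.2%, 7.69% and 43.0% and G2/M 21.0%, 51.8% and 27.9%. At Zyx, the gene of the focal adhesion protein zyxin (chr6:42350118-42352061, promoter), G1 read 3.33%, 16.7% and 62.5% and G2/M 12.7%, 43.8% and 27.9%. The high library was not the same in these windows: G1 replicate 3 at Il13 and Zyx, and G1 replicate 1 at Slc1a6.

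The windows around the members had higher levels than the members, whose own level was set by the choice. Their mean of 31.8% compared with 49.6% and 50.0% in the windows immediately before and after, and with 57.8% and 57.6% in the windows 5 places away. The long windows, chosen by the same limits of level, had a mean of 38.9% and neighbours at 48.7% and 48.7%. CpG-dense windows under 20% had neighbours at 38.3% and 38.1%, and CpG-dense windows over 50% had neighbours at 67.7% and 67.1%, close to their own mean of 68.9%. Beyond 2 windows the members and the unmethylated windows had nearly the same surroundings, at 56.9% and 56.7% in the window 3 places before.

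Both neighbours within 2000 bp were over 50% at 666 members (31.7%). At 628 members (29.9%) the neighbours were over 50% on one side and from 20% to 50% on the other, and at 346 (16.5%) over 50% and under 20%. Both were intermediate at 170 members (8.08%) and both under 20% at 25 (1.19%), and 121 members lacked a neighbour within that distance on at least 1 side. The pattern was close to that of the long windows, with both neighbours over 50% in 32.7%. It lay between the other CpG-dense classes, where both neighbours were over 50% in 12.6% of windows under 20% and in 78.8% of windows over 50%. Of the 1982 members with both neighbours, 1196 (60.3%) lay below both, 690 (34.8%) between them and 96 (4.84%) above both.

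**Figure D3:**
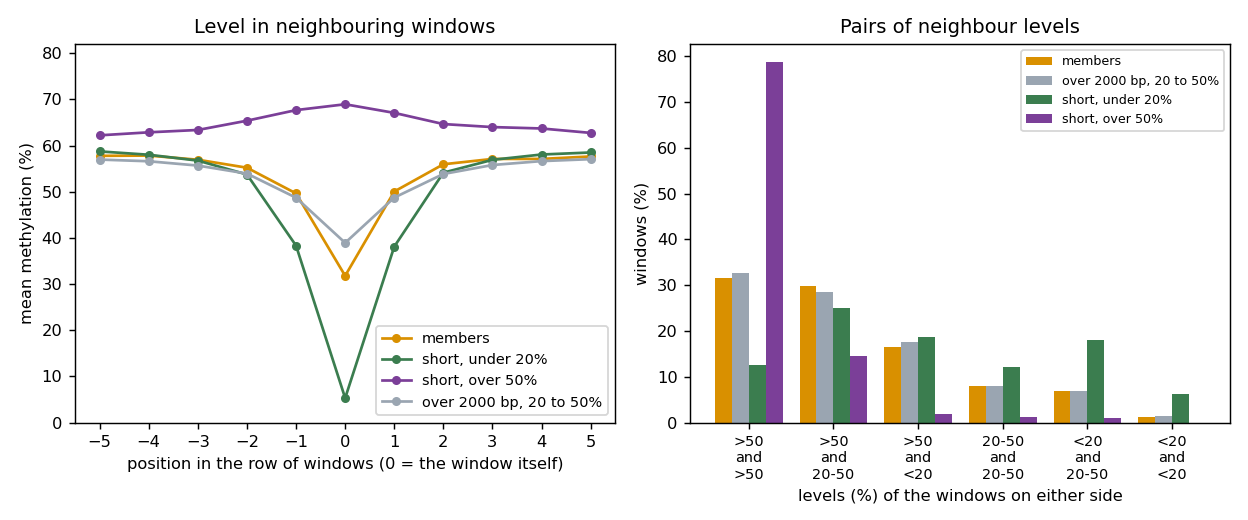
Left, mean methylation in the window itself (0) and in the 5 windows on either side, for members and 3 other classes. Right, the share of windows by the levels of the windows on either side within 2000 bp. Members, chosen for their level, stood at 31.8% between neighbours at 49.6% and 50.0%, and 31.7% of them had a neighbour over 50% on both sides.

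At members between a methylated and an unmethylated neighbour, CpGs were packed on the side of the unmethylated one. Of those 346 members, 307 (88.7%) had more CpGs in the part of the window facing the neighbour under 20%, and 36 (10.4%) had more on the other side. The median numbers were 36 CpGs facing the unmethylated neighbour and 16 facing the methylated one. The same was seen in 87.3% of 1458 windows under 20% and in 78.0% of 5134 long windows with such neighbours, so it was not particular to the members. How methylation divides within a window cannot be read from 1 percentage per window.

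Adjacent members were uncommon. The 2103 members formed 1965 runs, of which 1842 were single windows and 123 held 2 or more.

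By position, the centre of 666 members (31.7%) lay in a promoter, from 1000 bp before to 100 bp after a transcript start of GENCODE vM21. Another 523 (24.9%) lay in exons, 685 (32.6%) in introns and 229 (10.9%) between genes. Promoters held 53.3% of the CpG-dense windows under 20% and 12.8% of those over 50%, so the members fell between. The promoter share was 7.56% in the long windows. With promoters taken as 1000 bp on both sides of a start the members' share rose to 49.9%, and the share with any overlap was 53.8%. The median distance to the nearest coding start was 1183 bp in members, 469 bp in windows under 20% and 8349 bp in windows over 50%. Members were found on every autosome, from 13.4% of the CpG-dense windows on chromosome 12 to 23.1% on chromosome 10.

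In length, G+C content and CpG ratio the members also fell between, nearer to the methylated class. They had a median length of 1702 bp, against 1083 bp in windows under 20% and 1806 bp in windows over 50%. Length was part of the rule only as an upper limit. The median G+C content was 53.0% in members, 56.9% in windows under 20%, 52.0% in windows over 50% and 46.0% in long windows. The ratio of observed to expected CpGs was 0.471, 0.660, 0.441 and 0.243 in the same order. The median number of CpGs per window was 52, 53, 51 and 52. With nearly equal numbers of CpGs, this ratio largely follows from length and G+C content and is not a separate trait. Repeats placed the members between the other CpG-dense classes only in part. Repeat-masked sequence made up more than 50% of 10 members (0.476%), which again fell between, here nearer to the unmethylated class. The share was 0.179% of the windows under 20%, 9.34% of those over 50% and 6.66% of long windows. The median masked share of the members did not fall between. It was 9.95% in members, 7.78% in windows under 20%, 8.70% in windows over 50% and 25% in long windows.

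In all, 4 motifs were searched on both strands in the central 500 bases, which all members and 7226 of the windows under 20% had. TGCCGC, the core of the ZFP57 site found at imprinted control regions, was in 12.4% of members, in 22.3% of windows under 20%, in 14.2% of windows over 50% and in 4.39% of long windows. GGGCGG, the GC box, was in 22.8%, 46.6%, 20.4% and 8.84%. GCGGGAA, an E2F6 site, was in 4.33% of members, and CACGTG, an E-box, in 9.84%. All 4 motifs contain a CpG. Per 100 CpGs, TGCCGC occurred 1.10 times in members, 1.14 in windows under 20%, 1.17 in windows over 50% and 0.846 in long windows. GGGCGG differed more, at 2.70 times per 100 CpGs in members, 3.75 in windows under 20%, 1.56 in windows over 50% and 2.05 in long windows. GGGCGG was in 69.7% of whole member windows, 80.7% of those under 20% and 52.0% of those over 50%. In whole windows, 931 members (44.3%) held at least 1 TGCCGC and 52 (2.47%) held 3 or more.

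Imprinted genes carry control regions methylated on the copy from a single parent, and their list was examined first. Of 42 listed genes, 21 had a CpG-dense window within 2000 bp of a transcript start, and 8 of these had a member there (38.1%), against 18.5% of the 7374 coding genes with such a window. The 28 CpG-dense windows at imprinted starts were spread over all levels, with 16 under 20%, 7 members (25%, against 18.8% of all CpG-dense windows) and 5 over 50%. The 8 genes shared these 7 windows, as neighbouring or antisense starts do, so the share of genes counts some windows more than once. Windows at Grb10 and Plagl1 had means of 0% and 6.53%, those at H19 and Peg13 77.1% and 82.3%. With gene bodies included there were 8 member windows, with means from 27.6% to 42.0%, of which only 1 had all 6 libraries within 20% to 50%. Their median SD was 13.8 percentage points, against 9.30 in all members. No imprinted-list member had a neighbour under 20%.

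At Gnas, the gene of the stimulatory G protein subunit, and its antisense transcript Nespas, 3 members lay close together. In the first (chr2:174295709-174297007, promoter) G1 read 25.2%, 18.3% and 22.1% and G2/M 23.0%, 40.2% and 52.4%. G2/M replicates 2 and 3 were high and replicate 1 was within the G1 range. In the adjoining window (chr2:174297008-174298053, promoter), whose centre is printed above, G1 read 11.3%, 43.8% and 27.0% and G2/M 51.6%, 37.9% and 44.0%. The third window (chr2:174300013-174300809, intron of Gnas) read 35.2%, 42.4% and 45.2% for G1 and 28.6%, 3.57% and 44.4% for G2/M, where replicate 2 stood apart. The first window held 6 copies of TGCCGC and the others 1 each.

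At Peg3, a paternally expressed zinc finger gene, and its divergent neighbour Usp29, a ubiquitin peptidase gene, 2 members adjoined. The intronic window (chr7:6727893-6729726), whose centre is printed above, read 52.5%, 55.2% and 37.8% for G1 and 16.0%, 52.4% and 38.2% for G2/M, with overlap. The window over the starts (chr7:6729743-6730844) read 48.5%, 49.3% and 25% for G1 and 22.0%, 20.7% and 0% for G2/M. All G1 libraries were above all G2/M libraries, by 26.7 percentage points, and without the listed 0% G2/M replicate 3 the phases were still separate (limma unadjusted p = 0.0357, adjusted p = 1). The windows held 5 and 3 copies of TGCCGC.

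The other imprinted members were single windows. Around Peg10, a retrotransposon-derived gene, with Sgce beside it (chr6:4748173-4749146, intron), G1 read 39.1%, 22.2% and 44.1% and G2/M 49.0%, 70.1% and 15.8%. The pooled SD of 21.0 percentage points came mostly from G2/M, whose libraries spanned the whole range. At the retrogene Mcts2, within an intron of the signal peptide peptidase gene H13 (chr2:152687120-152689015), G1 read 31.0%, 31.5% and 33.5% and G2/M 34.4%, 23.6% and 49.0%. This was the imprinted member with all 6 libraries in the range. At Inpp5f, an inositol phosphatase gene (chr7:128688219-128689484, exon), G1 read 42.8%, 16.3% and 76.7% and G2/M 26.6%, 27.0% and 27.6%. The G2/M libraries were almost level and the G1 libraries spanned the whole range.

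**Figure D4:**
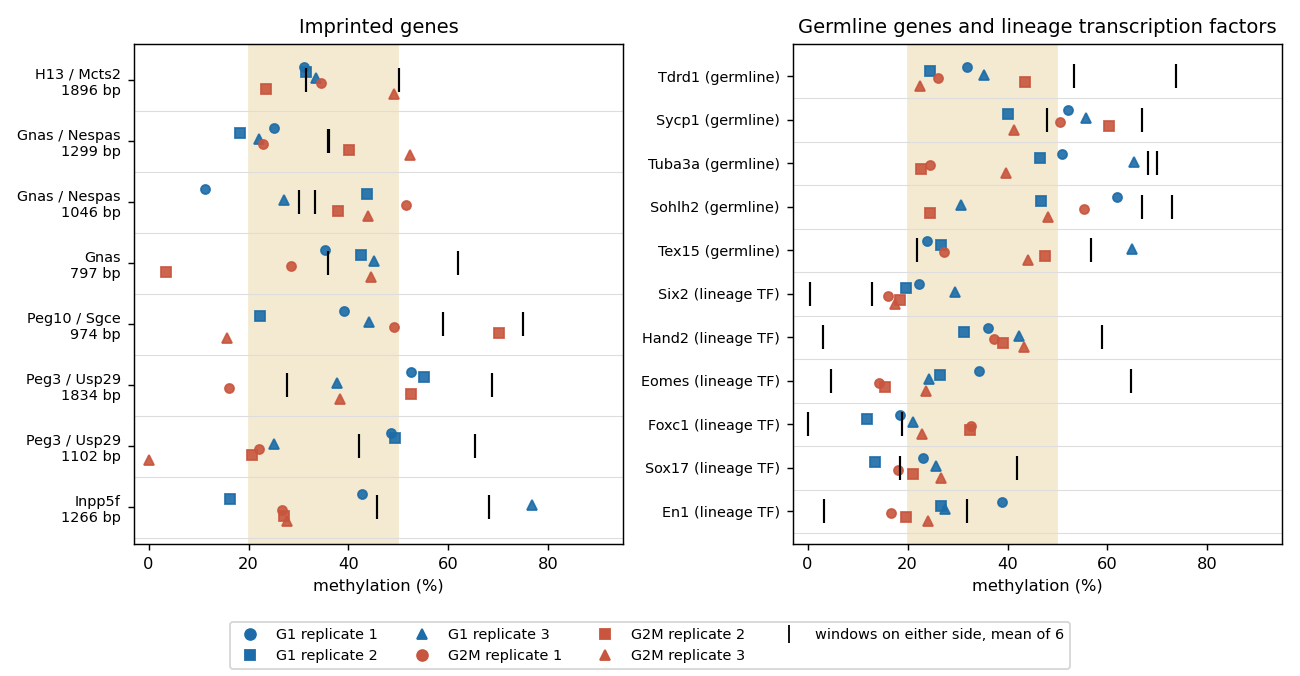
Methylation in each of the 6 libraries (points by phase and replicate) for members at imprinted genes, left, and at germline genes and lineage transcription factors, right, with vertical ticks for the windows on either side and a shaded band from 20% to 50%. Only H13 / Mcts2 had all its points in the band among the imprinted windows, and the germline windows had ticks at 47.8% or above except on 1 side of Tex15.

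Germline genes had members in 5 of the 11 genes with a CpG-dense window at a start (45.5%), with 3 windows under 20% and 3 over 50%. The share was 18.5% of the 7374 coding genes with such a window, and 18.8% of all CpG-dense windows were members. With only 11 windows, the difference was not tested. At Sycp1, a synaptonemal complex gene (chr3:102935822-102937246, promoter), G1 read 52.2%, 40.0% and 55.8% and G2/M 50.5%, 60.3% and 41.2%. At Tdrd1, a gene of the piRNA pathway (chr19:56825722-56826915, promoter), G1 read 31.9%, 24.5% and 35.2% and G2/M 26.1%, 43.6% and 22.6%. The phases overlapped in both windows. At Tuba3a, a testis tubulin gene (chr6:125284651-125286348, intron), G1 read 51.0%, 46.6% and 65.2% and G2/M 24.5%, 22.7% and 39.7%. The phases were separate there, with G1 higher by 25.2 percentage points (limma unadjusted p = 0.00784, adjusted p = 1). The members at Sohlh2, a germ cell transcription factor gene, and Tex15, a gene needed in spermatogenesis, had means of 44.6% and 39.0% and SDs of 15.9 and 17.96 percentage points. Of the 5 windows, 3 had a neighbour over 50% on both sides and none had a neighbour under 20%.

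Members at lineage transcription factors lay beside unmethylated windows. Of 48 such genes with a CpG-dense window at a start, 22 had a member (45.8%). Several such genes had many CpG-dense windows, and of all 121 of them 25 were members (20.7%), near the 18.8% of all CpG-dense windows, with 96 under 20% and none over 50%. A neighbour under 20% adjoined 20 of the 25 members (80%), against 25.4% of all members, and none had methylated neighbours on both sides. Their means ran from 20.6% to 44.1%, and 4 had all 6 libraries in the range. At Hand2, a heart and limb factor (chr8:57322762-57324433, intron), G1 read 36.2%, 31.2% and 42.4% and G2/M 37.2%, 39.1% and 43.3%, between neighbours at 3.06% and 58.8%. The libraries of both phases were interleaved. At Six2, a kidney progenitor factor (chr17:85685604-85687411, intron), G1 read 22.2%, 19.7% and 29.5% and G2/M 16.1%, 18.4% and 17.5%. All G1 libraries were above all G2/M libraries, by 6.47 percentage points, and both neighbours were under 20%.

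At 2 other developmental genes the listed differences ran in opposite directions. Upstream of Eomes, a mesendoderm factor (chr9:118475945-118477066, intergenic), G1 read 34.2%, 26.5% and 24.3% and G2/M 14.2%, 15.5% and 23.6%, with G1 higher throughout (limma unadjusted p = 0.0455, adjusted p = 1). In an exon of Foxc1, a mesoderm factor (chr13:31808443-31809878), G1 read 18.5%, 11.8% and 21.1% and G2/M 32.7%, 32.4% and 22.8%, with G2/M higher throughout (limma unadjusted p = 0.0291, adjusted p = 1). The windows at En1 and Sox17 had means of 25.6% and 21.3%. These windows, with those at Hand2 and Six2, were named for the smallest SD within phases among the 25 lineage-factor members. As at Paqr8, such a choice makes separate phases more likely, so the separation is no result of its own. Of the 25 members, 3 had an unadjusted limma p under 0.05, against 6.51% of all members and 10.7% of the other CpG-dense windows.

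Pluripotency genes had no members, and housekeeping genes had 1. Of 21 pluripotency genes, 13 had a CpG-dense window at a start, and all 21 of those windows had means under 20%, the highest being 15.8% at Sall4. The housekeeping list had 1 member among 10 CpG-dense windows (10%), at the elongation factor gene Eef2 with a mean of 20.0%, at the limit. The list of the methylation machinery had 1 among 7 (14.3%), upstream of Mbd2, a methyl-CpG binding protein, with a mean of 21.2%. Of all CpG-dense windows, 18.8% were members and 69.9% had means under 20%. With only 10 and 7 windows, the housekeeping and methylation machinery shares were not read as different from 18.8%.

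Among 10 gene families examined, the one with most members relative to its CpG-dense windows, apart from keratins with 2 of 3, was that of the clustered protocadherins, neuronal adhesion proteins whose variable exons stand in tandem on chromosome 18. Of their 53 CpG-dense windows 32 were members (60.4%), against 18.8% of all CpG-dense windows. The count was 10 of 19 in the alpha cluster, 11 of 11 in the beta cluster and 11 of 23 in the gamma cluster, where the other 12 windows were under 20%. The centre of 27 of the 32 windows lay in an exon, against 24.9% of all members. The exon share of the protocadherin windows that were not members was not computed, so it may belong to the locus. An intermediate neighbour adjoined 30 of the 32, against 46.6% of all members, and none had neighbours over 50% on both sides.

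Averaged over the protocadherin members, G1 replicates 1, 2 and 3 stood at 33.7%, 30.3% and 39.0%, and those of G2/M at 34.4%, 31.1% and 37.5%. The phases overlapped, G1 at 34.3% ± 4.38 (SD, n = 3) and G2/M at 34.3% ± 3.19 (SD, n = 3). Single windows had means from 23.0% to 47.5% and a median SD of 9.37 percentage points, close to that of all members. Within the beta cluster the means ran from 23.1% at Pcdhb21 to 46.7% at Pcdhb14. The steadiest beta window, Pcdhb21, read between 18.3% and 31.8%, and Pcdhb14 read between 30.8% and 71.8%. Related exons can share reads, and the placement of such reads was not tested.

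**Figure D5:**
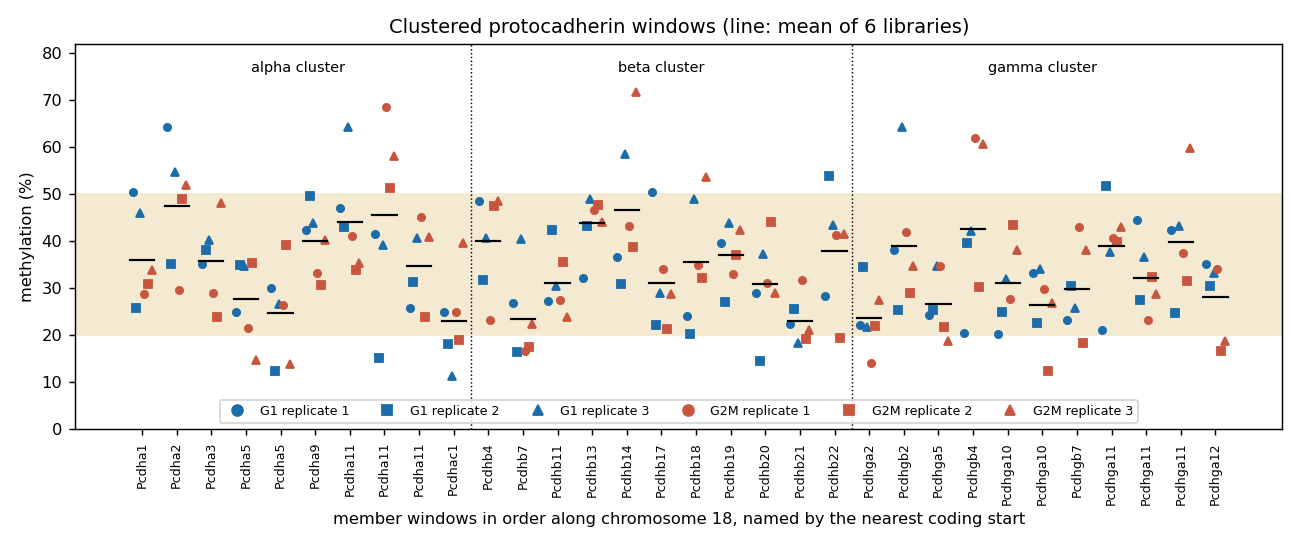
Methylation in each of the 6 libraries (points) and the mean of 6 (line) for the 32 protocadherin members, in order along chromosome 18 and named by the nearest coding start, with a shaded band from 20% to 50%. Means lay between 23.0% and 47.5% in all 3 clusters, and G1 and G2/M points were mixed.

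Hox genes, which pattern the body axis, had 12 members among 39 CpG-dense windows (30.8%), and the other 27 were under 20%. The members were 5 of 15 windows in the A cluster, 3 of 11 in B, 1 of 4 in C and 3 of 9 in D, with means from 23.8% to 41.8%. The highest, in an intron of Hoxc4, read between 19.5% and 56.5%. Zinc finger genes of the Zfp series had 47 of 226 (20.8%) and solute carriers 42 of 200 (21.0%), near the 18.8% of all CpG-dense windows. Histone genes had 1 of 15 (6.67%).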

How the data were processed

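EM-seq gave CpG methylation for 3 G1 and 3 G2/M libraries of sorted mESCs, grouped by their titles. Per the paper's methods and the submitters' processing notes, reads (75 bp, paired) were trimmed with Trim Galore 0.6.4, aligned to GRCm38/mm10 with Bismark 0.22.1, and filtered for duplicates, mapping quality and outlier regions, and a window needed at least 1 in 5 of its CpGs observed in each library. The deposited values are the authors' percent CpG methylation of each 100-CpG window and library, without normalization between libraries. Neither counts nor coverage accompany them, so the depth behind a value is unknown, intervals and detection limits are not given, the methods' logistic regression was not repeated, and a listed 0% has no error.

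Windows were assigned to members by the rule in the report. The members, gene lists, families and motifs were chosen with earlier results of these data known. For library means, two-sided exact permutation tests used the 20 labelings, and windows were tested by limma 3.58.1 in R 4.3.3 (lmFit, eBayes with a trend, offset 1) on the whole table, with a step tested on simulated data. P-values measure the spread between these libraries. The study states that experiments were repeated independently, but not which cultures gave which library. Its text speaks of matched replicates without saying what matches them, and same-numbered libraries were also compared as pairs. Deviations of same-numbered libraries from their phase means correlated across all windows with r from 0.0274 to 0.0549, and those of differently numbered libraries with -0.0299 to -0.00144. Within the members these ranges were 0.000206 to 0.0775 and -0.0544 to 0.0483, and they overlapped. Deviations from a shared mean are not independent of each other, so these correlations do not settle the pairing.

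Windows named singly were all members overlapping an imprinted-list gene or within 2000 bp of its start, up to 6 members of lowest SD at starts of each other list, the 3 of smallest and 3 of largest SD, the 3 largest differences in each direction with all 3 replicate differences that way, and the 2 windows on each side of each limit. The longest run of adjacent members is not reported here. The protocadherin and Hox windows were chosen after their values were seen. Annotation was GENCODE vM21. Python 3.11.15, numpy 2.4.6, pandas 2.3.3, scipy 1.17.1 and matplotlib 3.10.9 were used. Alternatives were medians, narrower limits, 1 window per run, another offset and scale, a filter on level, no trend, the replicate block, centring, other gaps, classes and promoters, whole windows, and leaving out each library.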

Additional observations from a re-analysis of the deposited data

How the results depend on the processing

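Leaving out each library in turn gave a small phase difference over the members of -1.64 to 1.86 percentage points. It was negative without G1 replicate 3, G2/M replicate 1 or G2/M replicate 2. Each omission weights the high replicate 3 unequally between the phases, so these signs do not test the difference. Relative to other CpG-dense windows the range was -1.13 to 1.07 percentage points, negative without the same libraries. The median, narrower limits, 1 window per run and the replicate block (0.153 and 0.0194 percentage points, as without it) kept the sign. The count of 8 windows called by limma over the whole table fell to 1 with an offset of 5 (7753 at an unadjusted p under 0.05), and to 0 on the percent scale (7946), with the replicate block (17356), for windows from 10% to 90% (8095) and without a trend (7776), and was 26 to 46 with 1 library left out. The cause was not tested. Members passing were 0 in each of these fits, and their unadjusted list of 137 became 223 on the percent scale. The share of members with both neighbours over 50% was 26.7% with a gap of at most 500 bp, 33.8% with no limit and 17.5% with neighbour classes at 10% and 60%. The promoter share was 49.9% and 53.8% under the wider definitions, and the share with TGCCGC 44.3% over whole windows, by construction of larger targets. The within-phase SD and the mean share in a held-out library moved by less than the spread between replicates under the alternatives run. Centring did widen the range of that share over libraries in short windows, to 61.0% to 76.1%. Without coverage, windows read from few fragments could not be set apart, and 3 libraries a phase limit every test.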

Other observations

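The X chromosome, which the rule leaves out, held 47 CpG-dense windows, of which 13 (27.7%) had a mean from 20% to 50%, 26 (55.3%) a mean under 20% and 8 (17.02%) a mean over 50%. The 13 intermediate windows averaged 32.3% ± 8.37 (SD, n = 3) over the G1 libraries and 31.1% ± 4.66 (SD, n = 3) over those of G2/M, and a median within-phase SD of 13.1 percentage points.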
